A study of Homo sapiens with 6 samples.

Results

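The LINC genes are long non-coding RNAs (lncRNAs) whose symbol is LINC followed by a number, a name given to long transcripts that lie between protein-coding genes and hold no long reading frame. The members described here are the lncRNAs with such a symbol whose estimated counts average at least 50 over the 6 libraries. They number 127 of the 576 LINC lncRNAs in the count table, of which 335 had enough reads to be tested, among 30270 genes in all. All libraries were total RNA, depleted of ribosomal RNA, from HEK 293T, an immortalized human embryonic kidney line that carries the SV40 large T antigen. The WT group held 3 libraries of the wild-type line and the ΔTUT4/7 group held 3 libraries labelled as the TENT3A/B double knockout, TENT3A and TENT3B being other names of TUT4 and TUT7. The labels give no treatment for either group. The knockout libraries came from 1 knockout line obtained from another laboratory, so a difference between the groups cannot be told apart from a difference between 2 lines grown separately. TUT4 and TUT7 add uridines to the 3′ ends of RNAs, among them mRNAs and precursors of microRNAs. The comparison asks which RNAs differ in abundance when both enzymes are deleted.

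LINC RNAs are made by RNA polymerase II, and most are capped, spliced and polyadenylated like mRNAs. Many remain in the nucleus, are present at low copy number and are turned over by the nuclear exosome. Some are the primary transcripts of microRNAs, some carry binding sites for microRNAs, and some act on the gene beside them. TUT4 and TUT7 are best known for uridylating the precursors of the let-7 microRNAs.

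Most members were less abundant in the libraries labelled ΔTUT4/7. Among the 127 members, 76 decreased and 12 increased (edgeR quasi-likelihood test, FDR under 0.05), and 39 were not called. Over all 23952 genes tested the share called lower was 29.0% and the share called higher was 28.6%, against 59.8% and 9.45% of the members. At a change of 2-fold or more, 41 members decreased, or 32.3%, where 12.4% of all genes did, and 4 increased, or 3.15%, where 5.90% did. The median log2 fold change of the members was -0.55, with an interquartile range of -1.15 to 0.03, beside -0.02 for all genes tested. In 81 members every ΔTUT4/7 library lay below every WT library, and in 16 every one lay above. Over all genes those patterns took 31.8% and 30.9%.

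**Figure D1:**
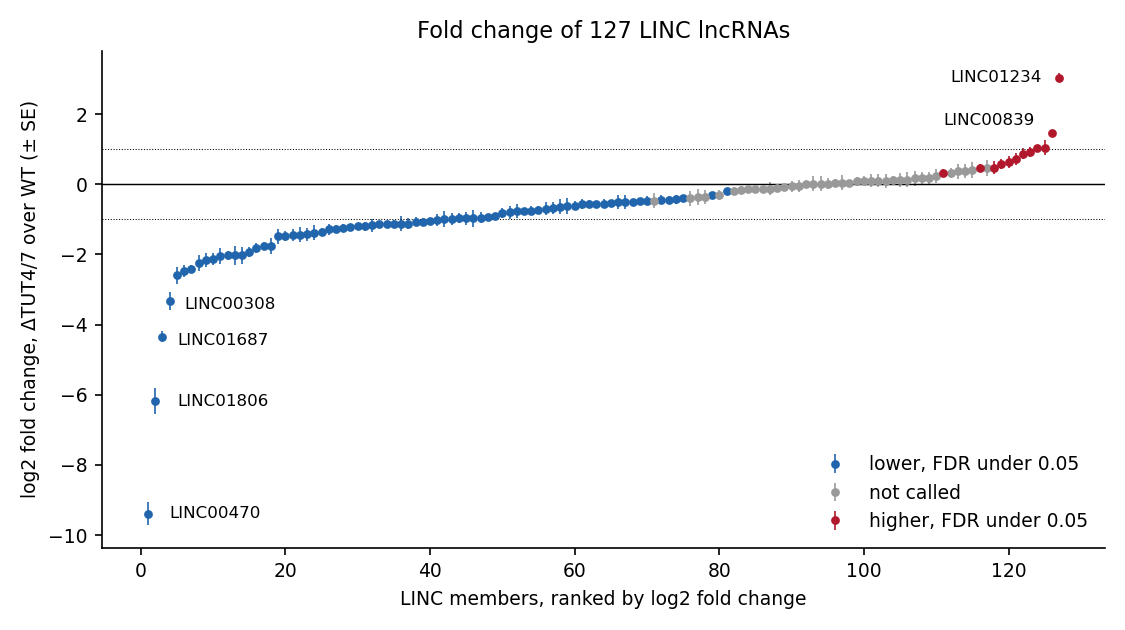
Log2 fold change of ΔTUT4/7 over WT (y axis, bars are the standard error) for the 127 members ranked from the largest decrease to the largest increase (x axis), with blue for members lower and red for members higher at FDR under 0.05 and dotted lines at 2-fold. The 76 blue points fill the left of the plot, and LINC00470, LINC01806, LINC01687 and LINC00308 lie below -3.

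The labels were checked on the deleted genes. In CPM, the counts of a gene per 1000000 counts of the TMM-scaled library size, TUT7 had 60.4, 62.6 and 64.8 in WT and 27.2, 25.2 and 26.5 in the libraries labelled ΔTUT4/7. TUT4 went against its label, with 212, 216 and 206 CPM in WT and 882, 920 and 917 CPM in the libraries labelled ΔTUT4/7. Gene counts do not show whether these transcripts encode an active enzyme, and the direction of every comparison here rests on the label. Library totals ran from 18757228 to 33148937 counts. Of the genes that mark HEK 293 cells, VIM, CDH2 and KRT18 increased by 1.33, 1.19 and 0.54 on the log2 scale. NEFL decreased by 1.74, from 352 to 105 CPM, and KRT8 by 1.54, from 9.96 to 3.43 CPM. The kidney factors PAX2 and LHX1 decreased by 0.56 (adjusted p = 0.0409, edgeR) and 0.98 (adjusted p = 0.000177, edgeR), and neither exceeded 4.37 CPM in any library. Of the markers of other cells, the endothelial PECAM1 and the hepatic ALB stayed at or below 0.228 CPM, and COL1A1, a fibroblast collagen, averaged 20.4 CPM in WT and 7.45 CPM in ΔTUT4/7. PTPRC, CD3E and DCN were not listed in the table used here. The part of these marker differences in the members' values was not tested.

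The sequences that matter most for the members are those of the microRNAs they carry or bind. LINC00472 holds the genes of miR-30a and miR-30c-2, LINC00461 holds that of miR-9-2, and LINC00632 is the precursor of a circular RNA with many sites for miR-7. The let-7 sequence is shown because let-7 precursors are the classical substrates of TUT4 and TUT7. Mature sequences are from RefSeq (GRCh38.p14), 5′ to 3′, with the seed, bases 2 to 8, in capitals.
hsa-let-7a-5p: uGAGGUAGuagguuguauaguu
hsa-let-7i-5p: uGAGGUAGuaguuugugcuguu
hsa-miR-7-5p: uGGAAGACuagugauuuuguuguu
hsa-miR-30a-5p: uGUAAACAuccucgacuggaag
hsa-miR-30c-5p: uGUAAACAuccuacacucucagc
hsa-miR-9-5p: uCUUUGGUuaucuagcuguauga
The pair of let-7 sequences share one seed and the pair of miR-30 sequences share another.

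LINC00632 (chrX:140709562-140793215, plus strand, hg38) took the most counts of any member. It had 671, 748 and 732 CPM in WT and 353, 298 and 323 CPM in ΔTUT4/7. The groups did not overlap, and LINC00632 decreased by 1.14 ± 0.06 (SE) on the log2 scale (adjusted p = 1.52e-10, edgeR). LINC00632 is known as the precursor of CDR1as, a circular RNA of the nervous system that binds miR-7. Of its 29 annotated transcripts in GENCODE 44, 6 held 50 or more matches to the miR-7 seed (GTCTTCC) and 23 held none. Transcript LINC00632-206, of 1878 bases, held 67 matches at a median spacing of 18 bases, while none of the other lncRNAs among the 7472 matched to GENCODE had a transcript with more than 24. The first matches of that transcript are shown with the seed match in capitals, from GENCODE transcript sequence on hg38, plus strand.
LINC00632 site 1, chrX:140783189-140783218: cctgtgtcaagGTCTTCCaacaactccggg
LINC00632 site 2, chrX:140783207-140783236: aacaactccggGTCTTCCagcgacttcaag
LINC00632 site 3, chrX:140783225-140783254: agcgacttcaaGTCTTCCaataatctcaag
The windows overlap, so the bases between consecutive matches can be read in them.

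**Figure D2:**
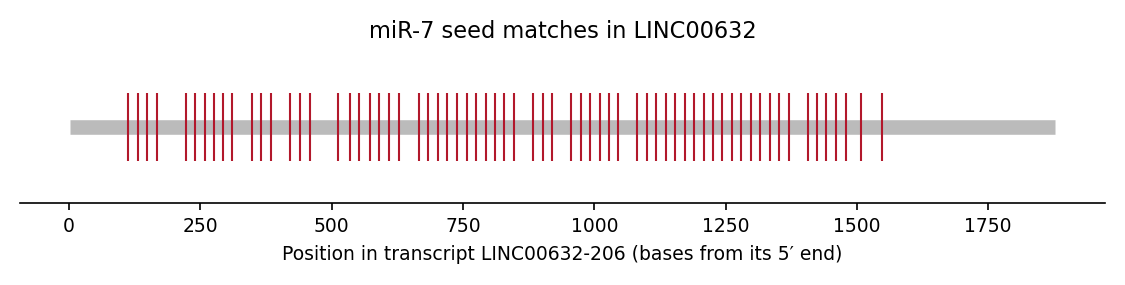
Positions of the 67 miR-7 seed matches (red lines) along transcript LINC00632-206 (grey bar, x axis in bases from the 5′ end of its 1878 bases). The matches run from base 113 to base 1548 at a median spacing of 18 bases with some wider gaps, and the last part of the transcript has none.

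CDR1, annotated on the opposite strand inside LINC00632, had 9.32, 14.3 and 16 CPM in WT and 6.93, 5.93 and 2.09 CPM in ΔTUT4/7. This gave -1.38 ± 0.47 on the log2 scale, which was not called (adjusted p = 0.0664, edgeR). Without ΔTUT4/7 replicate 3, the lowest library, the value was -1.04 (adjusted p = 0.00446), and DESeq2 called CDR1 lower as well, at -1.40 (adjusted p = 0.018). The strand used in counting is not given in the sources used here, so reads of CDR1 and LINC00632 cannot be assigned to one or the other with certainty. A gene count also does not separate circular from linear RNA.

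LINC00472 (chr6:71343427-71420745, minus strand), which holds MIR30A and MIR30C2, had 43.5, 49.3 and 41.9 CPM in WT and 22.3, 20.4 and 22.6 CPM in ΔTUT4/7. It decreased by 1.04 ± 0.07 on the log2 scale (adjusted p = 1.03e-10, edgeR), with no overlap between the groups. The nearest expressed protein-coding gene, OGFRL1, decreased by 0.97 ± 0.05. LINC00461 (chr5:88507546-88691057, minus strand), the host of MIR9-2, had 5.75, 7 and 7.73 CPM in WT and 3.56, 3.97 and 4.24 CPM in ΔTUT4/7, which gave a log2 fold change of -0.82 ± 0.15 (adjusted p = 7.09e-05). Its neighbour MEF2C, a transcription factor of muscle and neurons, was at -0.24 ± 0.07. LINC01138, which spans MIR5087 in the duplicated 1q21 region, decreased by 0.97 ± 0.14 (adjusted p = 2.59e-06). LINC00960, which overlaps MIR4273, decreased by 1.43 ± 0.18, but it also overlaps the zinc-finger gene ZNF717, which decreased by 1.64 ± 0.08, and reads may be shared between them. All 4 of these members were called lower, where 59.8% of all members and 29.0% of all genes tested were. Mature microRNAs were not analysed here.

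Other members lie beside let-7 genes and were picked by position after their values had been seen. LINC02603 lies 456 bases from MIRLET7A1 and overlaps MIRLET7D on the opposite strand, and its log2 fold change was 0.04 ± 0.21 (adjusted p = 0.889). LINC01465 overlaps MIRLET7I on the opposite strand, with a log2 fold change of 0.46 ± 0.23 (adjusted p = 0.0918). Neither was called.

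A match to the let-7 seed (CTACCTC, sense strand, in any annotated transcript) was found in 41 members, or 32.3%, and in 21.9% of the other lncRNAs above the same count limit. The members also had longer transcripts, with a median longest transcript of 2950 bases against 2510 bases in those lncRNAs. On the log2 scale the median change was -0.56 in the 41 members with a match and -0.55 in the 86 without, so the medians lay within 0.01 of each other. Members with a match had longer transcripts, with a median longest transcript of 3360 bases against 2810 bases. LINC00470 held the highest number, 3 matches in 1 transcript.

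LINC00470 (chr18:1254383-1408344, minus strand), studied in brain tumours, was close to absent in the libraries labelled ΔTUT4/7. It had 12.7, 13.8 and 12.1 CPM in WT and 0, 0 and 0.0511 CPM in ΔTUT4/7. The WT libraries together held 978 counts and the ΔTUT4/7 libraries 1 count, a ratio of 910 after scaling, with an exact 95% interval of 163 to 36000 that covers counting error only. The fitted log2 fold change was -9.39 ± 0.33 (adjusted p = 1.07e-15, edgeR). That error is derived from the F statistic and understates the uncertainty where a group holds 1 count. With so few counts the fold change depends on single reads. It was -11.36 without ΔTUT4/7 replicate 3, the library with that count, and -8.70 without replicate 1. YES1, the nearest expressed protein-coding gene at a gap of 442 kb, was at 0.22 ± 0.05.

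LINC01806 (chr2:161244730-161249050, plus strand) had the second largest decrease, from 4.28, 4.92 and 4.11 CPM in WT to 0.0624, 0.103 and 0 CPM in ΔTUT4/7, or -6.18 ± 0.38 on the log2 scale (adjusted p = 7.85e-12). Its neighbour TANK, an adaptor of innate immune signalling 8.50 kb away, was at -0.30 ± 0.09. LINC01687 and LINC00308 lie head to head on chromosome 21, and the gap from LINC00308 to the nearest expressed coding gene is 3470 kb. LINC01687 (chr21:22008756-22098518, minus strand) had 18.3, 15.8 and 16.7 CPM in WT and 0.624, 1.08 and 0.868 CPM in ΔTUT4/7, a change of -4.35 ± 0.16 on the log2 scale (adjusted p = 3.5e-15). LINC00308 (chr21:22098616-22116605, plus strand) had 4.43, 4.65 and 3.49 CPM in WT and 0.343, 0.464 and 0.46 CPM in ΔTUT4/7, or -3.33 ± 0.26 (adjusted p = 3.32e-10). Both genes of the pair were low in all 3 ΔTUT4/7 libraries, while MRPL39, the nearest expressed coding gene, was at 0.46 ± 0.06.

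The RefSeq promoter windows (GRCh38.p14, 250 bases before to 50 after the start) of 3 members among the largest changes are shown to compare their base composition, with CpG dinucleotides in capitals. The LINC00308 window holds the starts of both LINC00308, at base 22098617, and LINC01687, at base 22098459.
LINC00308, chr21:22098367-22098666, plus strand: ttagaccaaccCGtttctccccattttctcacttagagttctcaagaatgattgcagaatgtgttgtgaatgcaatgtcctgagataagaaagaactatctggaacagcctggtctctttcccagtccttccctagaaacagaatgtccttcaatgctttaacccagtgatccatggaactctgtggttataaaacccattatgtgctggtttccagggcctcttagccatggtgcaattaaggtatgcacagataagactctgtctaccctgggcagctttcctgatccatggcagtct
LINC01806, chr2:161244489-161244788, plus strand: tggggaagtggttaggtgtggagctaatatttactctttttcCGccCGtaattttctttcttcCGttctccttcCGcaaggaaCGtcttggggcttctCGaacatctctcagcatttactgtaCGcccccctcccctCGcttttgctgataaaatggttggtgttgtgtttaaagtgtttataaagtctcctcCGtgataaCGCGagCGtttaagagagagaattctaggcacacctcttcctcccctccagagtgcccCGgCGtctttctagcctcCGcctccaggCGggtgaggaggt
LINC01234, chr12:113773634-113773933, minus strand: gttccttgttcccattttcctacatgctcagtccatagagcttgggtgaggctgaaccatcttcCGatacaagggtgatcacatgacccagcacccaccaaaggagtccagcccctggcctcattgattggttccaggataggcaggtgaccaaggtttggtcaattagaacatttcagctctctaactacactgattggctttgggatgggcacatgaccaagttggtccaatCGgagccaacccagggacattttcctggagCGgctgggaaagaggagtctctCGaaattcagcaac
The window shared by the divergent pair held 1 CpG, that of LINC01806 held 16 and that of LINC01234, the member with the largest increase, held 4.

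Of the 127 members, 83 had a promoter window in RefSeq. A window was counted as CpG-rich at a GC content of 50% or more and an observed to expected CpG ratio of 0.6 or more, and 34 of the 83, or 41.0%, were. The share was 62.4% for other lncRNAs and 82.4% for protein-coding genes at the same count limit. Among members with a CpG-rich window, 8 of 34 decreased 2-fold or more, and among the other windows 18 of 49 did. The same split gave 18.5% and 17.5% of other lncRNAs, and 5.41% and 14.9% of protein-coding genes. The letters TATAAA, on either strand, were present in the windows of LINC00308 and LINC01806, in 12 of the 83 members (14.5%) and in 12% of all promoter windows. They were found in 6 of the 26 windows of members that decreased 2-fold or more and in 6 of the 57 other windows. The overlapping windows of LINC00308 and LINC01687 hold the same stretch, which was counted for each.

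Besides LINC00470, LINC01806 and the divergent pair, the next largest decreases were LINC01694, LINC02882, LINC01719, LINC01159, LINC02018 and LINC02615, from -2.60 to -2.13 on the log2 scale. LINC01159 (chr2:104865407-104872595), beside the neural transcription factor gene POU3F3, had 5.09, 3.92 and 3.65 CPM in WT and 0.780, 0.979 and 0.919 CPM in ΔTUT4/7, or -2.24 ± 0.23 (adjusted p = 2.07e-08). POU3F3 itself decreased by 2.58 ± 0.07, so the pair moved in the same direction. LINC01694 (chr21:45593654-45603088) decreased by 2.60 ± 0.25, from 5.6, 4.15 and 5.15 CPM to 0.874, 0.412 and 1.12 CPM, while SLC19A1, the reduced folate carrier gene 20.3 kb away, increased by 1.70 ± 0.08. LINC02018 decreased by 2.15 ± 0.20 and its neighbour ZNF717 by 1.64 ± 0.08. LINC02615 decreased by 2.13 ± 0.17 and PGRMC2, which encodes a haem-binding membrane protein 3.92 kb away, by 0.61 ± 0.05. LINC01719, at 17.5, 16 and 16.4 CPM in WT and 3.46, 3.04 and 2.66 CPM in ΔTUT4/7, lies in the duplicated 1q21 region, where reads may be shared with near-identical copies.

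The 4 members that increased 2-fold or more were LINC01234, LINC00839, LINC00662 and LINC00954. LINC01234 (chr12:113583886-113773726, minus strand), studied in gastric and other carcinomas, had 2.65, 2.12 and 1.96 CPM in WT and 17.3, 17.2 and 19.7 CPM in ΔTUT4/7. The log2 fold change was 3.03 ± 0.13 (adjusted p = 3.29e-14), and RBM19, a ribosome biogenesis gene 43.0 kb away, increased by 1.70 ± 0.06. LINC00839 had 14.3, 17.9 and 16.4 CPM in WT and 45.3, 44.8 and 43.9 CPM in ΔTUT4/7, or 1.46 ± 0.08 (adjusted p = 7.67e-13). Its nearest coding gene, the zinc-finger gene ZNF33B, was at -0.01 ± 0.06 and was not called. The 8 expressed genes within 1 Mb of LINC00839 had a median of 1.01, the highest among members with 5 or more such genes. LINC00662, a lncRNA studied in carcinomas, had 27.2, 27.2 and 25.3 CPM in WT and 53.6, 56.1 and 54.7 CPM in ΔTUT4/7, or 1.04 ± 0.06 (adjusted p = 4.69e-12). UQCRFS1, its nearest expressed coding gene at a gap of 1410 kb, increased by 0.69 ± 0.06. LINC00954 had 1.63, 1.85 and 1.73 CPM in WT and 3.49, 2.73 and 4.55 CPM in ΔTUT4/7, also 1.04, with a larger error of 0.21 (adjusted p = 0.00024). TTC32, the nearest expressed coding gene to LINC00954, was at -0.00 ± 0.12 and was not called. In each of the 4 members the lowest ΔTUT4/7 library lay above the highest WT library. LINC00662 and LINC00954 lie close to the 2-fold limit, and the count of 2-fold increases fell to 2 when counts were scaled by library size alone. The other 8 members called higher ranged from 0.32 for LINC00645 to 0.92 for LINC01535.

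**Figure D3:**
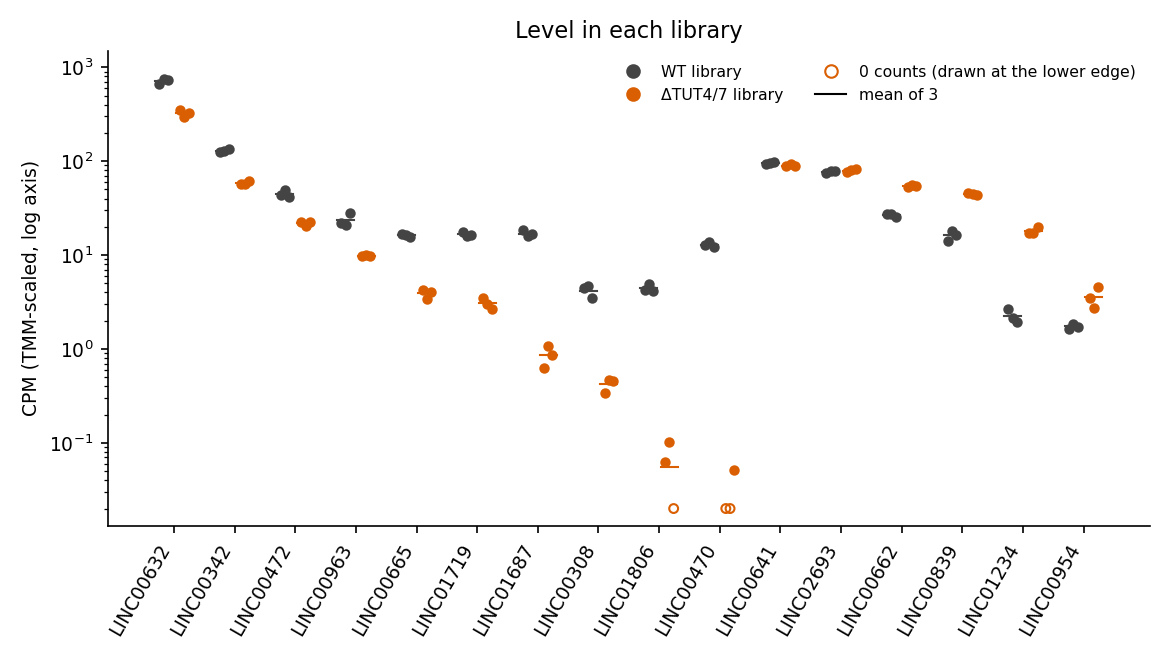
CPM in each library (y axis, log scale, points) of 16 members (x axis), with grey for WT, orange for ΔTUT4/7, lines for the mean of 3 libraries and open circles for libraries with 0 counts, drawn at the lower edge of the plot, where no mean is drawn for the ΔTUT4/7 libraries of LINC00470. The groups lie apart in the 10 members on the left and in the last 4 on the right, and LINC00641 and LINC02693 sit at nearly the same level in both groups.

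Of the members with the highest CPM, LINC00342 (chr2:95807052-95835003) decreased like LINC00632, from 124, 127 and 135 CPM to 56.9, 57.0 and 61.1 CPM, or -1.14 ± 0.05 (adjusted p = 7.2e-14). It lies beside ANKRD36C, which belongs to a family of similar copies and was at -0.57 ± 0.04. LINC00641 did not pass the test, with 92.8, 95.4 and 97.5 CPM in WT, 87.8, 92.3 and 89.5 CPM in ΔTUT4/7 and a log2 fold change of -0.09 ± 0.05 (adjusted p = 0.14), though it was called lower under other scalings, down to -0.20 with library size alone (adjusted p = 0.00125), beside HNRNPC at 0.48 ± 0.04. LINC02693 did not either, at 0.04 ± 0.05 (adjusted p = 0.568), although the potassium channel gene KCNJ12 8.39 kb away decreased by 1.38 ± 0.13. LINC00630, LINC01515 and LINC01128 were at -0.49, -0.31 and -0.20, all called lower and all short of 2-fold. Levels are compared between groups here and not between genes, since CPM rises with transcript length.

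Of a list of 20 LINC genes with a described role, 9 were members, LINC00632, LINC00461, LINC00662 and LINC01138 among them. LINC00665, whose small reading frame encodes the micropeptide CIP2A-BP, decreased from 16.9, 16.4 and 15.4 CPM to 4.27, 3.40 and 4.09 CPM, or -2.03 ± 0.12 (adjusted p = 3.06e-12), beside ZFP14 at 0.03 ± 0.10. LINC00963, studied in prostate cancer, decreased by 1.28 ± 0.11 (adjusted p = 3.17e-09) and LINC00467, with a reading frame for a mitochondrial micropeptide, by 1.12 ± 0.11 (adjusted p = 1.64e-08). The neighbours of both increased, NTMT1 by 1.24 ± 0.09 and TRAF5, an adaptor of TNF receptor signalling, by 0.74 ± 0.07. LINC00511, studied in several carcinomas, was at 0.10 ± 0.19 and LINC00623, beside NBPF26 on chromosome 1, at -0.13 ± 0.19, and neither was called.

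Together the members held a small share of all counts, 0.244% ± 0.0077 (SD, n = 3) in WT and 0.145% ± 0.00402 in ΔTUT4/7. Without LINC00632 the shares were 0.169% ± 0.00487 and 0.114% ± 0.0018. All other lncRNAs took 5.95% ± 0.122 and 3.98% ± 0.0532. In bulk RNA, fewer cells that express a gene and less RNA of it per cell cannot be told apart.

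Other gene classes at the same count limit were set beside the members. Of 1496 other lncRNAs, 38.8% were called lower and 19.4% higher, 15.2% decreased and 3.94% increased 2-fold or more, and the median was -0.17 on the log2 scale. Every ΔTUT4/7 library lay below every WT library in 41.1% of them and above in 21.5%. The classes nearest to the members were divergent or overlapping lncRNAs, with 23.5% lower by 2-fold and a median of -0.33, and other lncRNAs with a given name, with 22.8% and -0.34. Antisense lncRNAs were at 21% and -0.26, and lncRNAs known by a clone name at 12.2% and -0.11. Host genes of small RNAs lay on the other side, with 4.26% lower and a median of 0.15. Of 12447 protein-coding genes, 7.42% decreased 2-fold or more and the median was 0.08. Coding genes with a mean count of 50 to 500, the range that holds 110 of the 127 members, were at 15.1% and -0.07, beside 33.6% and -0.57 for those 110 members. The classes were not tested against each other.

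**Figure D4:**
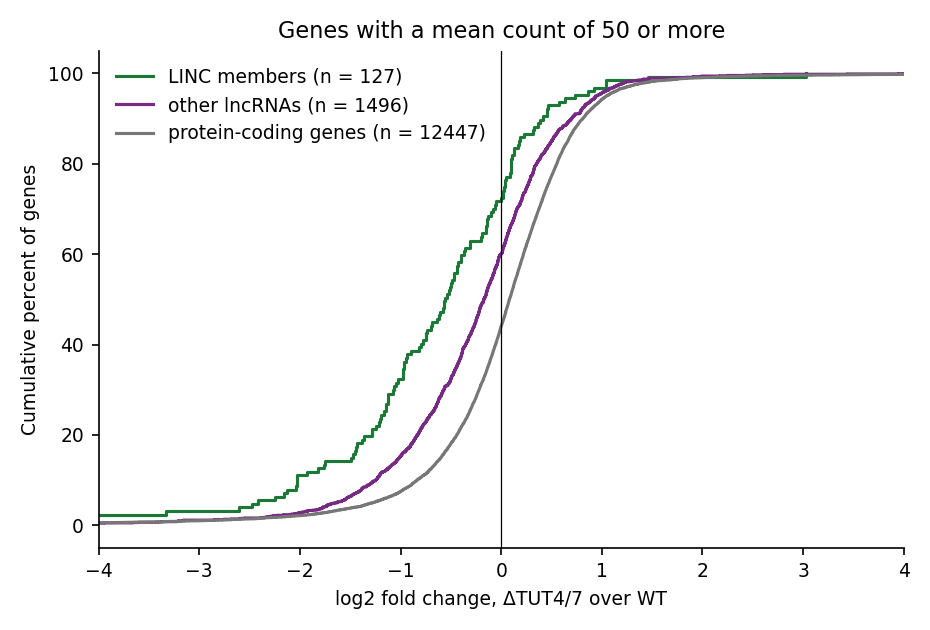
Cumulative percent of genes (y axis) by log2 fold change of ΔTUT4/7 over WT (x axis, shown from -4 to 4) for the 127 members, 1496 other lncRNAs and 12447 protein-coding genes, all above the same limit on the mean count. The members' curve lies to the left of both others over most of the range, with medians of -0.55, -0.17 and 0.08.

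The limit of 50 favours members that are high in either group. Of the 127, 100 had a mean of 50 or more in each group, 26 passed through the WT mean alone and 1 through the ΔTUT4/7 mean alone. Among the 100, 22 decreased and 3 increased 2-fold or more and the median was -0.41. The 27 with a mean under 50 in 1 group held 19 of the 2-fold decreases and 1 of the increases. Of the largest decreases named above, all but LINC01719 passed through the WT mean alone. These were LINC00470, LINC01806, LINC01687, LINC00308, LINC01694, LINC02882, LINC01159, LINC02018 and LINC02615. Other named members that did so were LINC00960, LINC02254, LINC02754 and LINC01033. LINC00954 passed through the ΔTUT4/7 mean alone. The choice of these members thus depended on the group in which they were high. Just inside the limit were LINC02754 at a mean count of 50.6 and LINC01033 at 51.7, with log2 fold changes of -0.40 and -0.47. Neither was called, though both were with library size alone (adjusted p = 0.0458 and 0.0306), and LINC01033 was at -0.68 without ΔTUT4/7 replicate 1 (adjusted p = 0.0335). Just outside were LINC01560 at 47.7 with -0.82 and LINC01597 at 46.9 with 0.82. Of the 208 LINC lncRNAs that were tested but fell under the limit, 86 decreased and 10 increased 2-fold or more, or 41.3% and 4.81%. Among all lncRNAs tested the shares were 19.9% and 4.71%. The share lower by 2-fold was 12.4% of all genes tested and 8.25% of those at a mean count of 50 or more. Genes of any class under the limit thus decreased 2-fold more often than those above it.

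The name intergenic did not hold for all members. By the listed gene spans, 90 members overlapped another gene of the table and 37 overlapped none, and 57 overlapped a gene that was expressed. These overlap counts run high, since a symbol shared by many small-RNA copies is listed as 1 gene with a long span. Metazoa_SRP overlapped all 10 members on chromosome 12, and Y_RNA was the only gene listed as overlapping LINC00641. In the same listing, an overlapping gene lay on the same strand for 40 members. The estimated counts divide reads between overlapping genes by a model, so these values are less certain. Of the 37 members free of any listed overlap, 14 decreased and 2 increased 2-fold or more, with a median of -0.43. That set leaves out members such as LINC00641, whose only listed overlap is such a symbol.

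Each member was set beside the nearest protein-coding gene that passed the same count limit. The median change of these neighbours on the log2 scale was -0.00, and 95 of the 127 members were lower than their neighbour. Of the 41 members that decreased 2-fold or more, 15 had a neighbour called lower, 5 of these by 2-fold. Another 11 had a neighbour called higher and 15 one that was not called. Some neighbours were counted for more than 1 member. With each neighbour kept only for the first of the 127 members beside it, 37 of the 41 remained. Of the neighbours of these 37, 13 were called lower, 3 of them by 2-fold, while 10 were called higher and 14 not called. LINC02593 was dropped there, because its neighbour SAMD11, which was not called, is also nearest to LINC01128, a member short of 2-fold. Of all protein-coding genes above the limit, 31.7% were called lower, 7.42% by 2-fold, and 42.7% higher. Over the 127 pairs Pearson's r was 0.158 and Spearman's rho 0.217. At a gap of 100 kb or less r was 0.288 (n = 93), at a larger gap it was -0.0743 (n = 34), and in the 24 pairs that overlapped or touched it was 0.547. The pairs share libraries, some share a neighbour, and overlapping genes can share reads, so these values only describe the pairs. Against all expressed genes within 1 Mb, 84 of 111 members with 5 or more such genes lay below the median of their window.

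**Figure D5:**
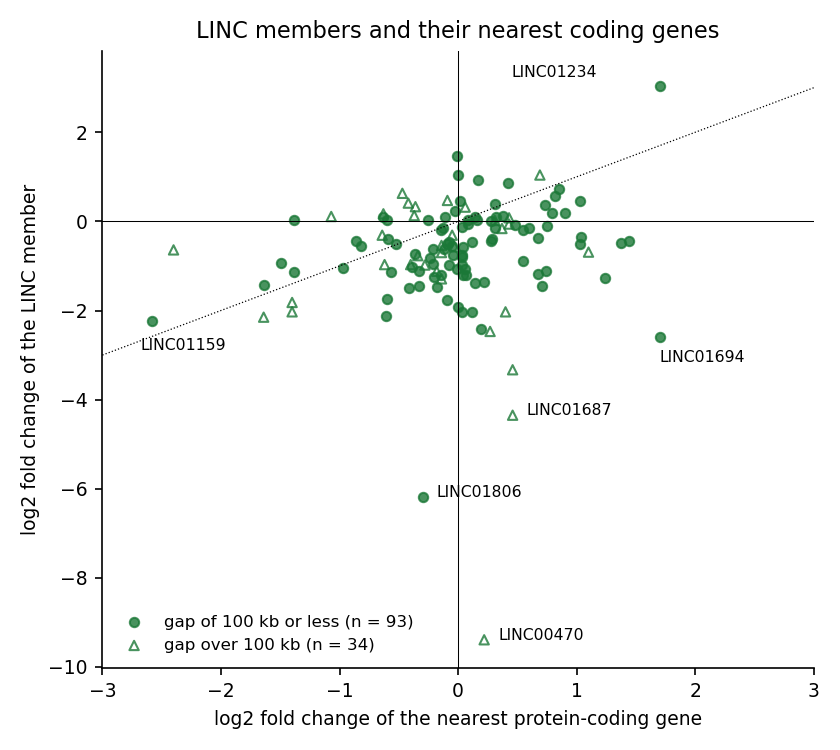
Log2 fold change of each member (y axis) against that of its nearest expressed protein-coding gene (x axis), filled for the 93 pairs with a gap of 100 kb or less and open for the 34 pairs with a larger gap, with equal change on the dotted line. Of the 127 members, 95 lie below the line, and LINC01694 lies far below it with an increased neighbour.

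Some members lie within 100 kb of another. LINC02253 and LINC02254, which overlap on opposite strands of chromosome 15, decreased by 1.82 ± 0.14 and 2.03 ± 0.24, and the nearest coding gene ARRDC4, an arrestin-domain gene 437 kb or more away, by 1.40 ± 0.06. The median of the 5 expressed genes within 1 Mb of LINC02253, LINC02254 and ARRDC4 among them, was -1.73. LINC01980 and LINC01981, also on opposite strands, were at -1.12 ± 0.15 and -0.69 ± 0.17, both called lower. LINC01415 and LINC01416 on chromosome 18 were at -1.29 ± 0.17 and -0.70 ± 0.18. At the start of chromosome 1, LINC02593 decreased by 1.20 ± 0.12 and LINC01409 by 0.54 ± 0.10. On chromosome 12, LINC00937, LINC02367 and LINC02449 were at 0.08, 0.11 and -0.06 and none was called, and LINC00987 was at 0.47 ± 0.19 (adjusted p = 0.0427), a call lost without WT replicate 1 (adjusted p = 0.151), WT replicate 2 (0.105), ΔTUT4/7 replicate 2 (0.184) or ΔTUT4/7 replicate 3 (0.0506). LINC01772 and LINC01783 were at -0.95 ± 0.16 and -0.51 ± 0.20, and the call of LINC01783 was lost without WT replicate 1 (adjusted p = 0.159), WT replicate 2 (0.0735), ΔTUT4/7 replicate 1 (0.0994) or ΔTUT4/7 replicate 3 (0.104).

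Members were spread over 23 chromosomes. Chromosome 1 held 19, of which 8 decreased 2-fold or more, and chromosome 2 held 11, of which 6 did. On chromosome 12, with 10 members, 2 decreased and 1 increased, and the median was 0.24. Of the 43 members with the shortest canonical transcripts (230 to 1400 bases) 19 decreased 2-fold or more, of the 42 of middle length 9 did and of the 42 longest 13 did, with medians of -0.64, -0.40 and -0.63. In 3 classes of equal size from low to high GC content the medians were -0.57, -0.58 and -0.47, and from low to high mean count -0.51, -0.69 and -0.50. A polyadenylation signal (AATAAA or ATTAAA) stood in the last 50 bases of the canonical transcript in 46.5% of members, 46.3% of those 2-fold lower, 46.9% of other lncRNAs and 81.7% of protein-coding genes.

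Since lncRNAs are known substrates of the nuclear exosome, a list of 23 genes of the exosome and its adaptors was examined. Of these, 16 increased and 3 decreased, none by 2-fold, with a median of 0.28. Of protein-coding genes above the count limit of the members, 42.7% were called higher and 31.7% lower, beside 28.6% and 29.0% of all genes tested. DIS3, a catalytic subunit, increased by 0.57 on the log2 scale (SE 0.04) and ZCCHC8, a scaffold of the nuclear exosome targeting complex, by 0.61 (SE 0.05). EXOSC6 and EXOSC9, both subunits of the exosome ring, decreased by 0.65 ± 0.06 and 0.43 ± 0.06, and EXOSC10, a nuclear exonuclease, by 0.24 ± 0.05. Whether these changes had a part in the levels of the members was not tested.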

How the data were processed

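Total RNA of HEK 293T cells was made into libraries after rRNA reduction (3 WT, 3 ΔTUT4/7, labelled biological replicates, paired-end reads of 76 bases). Per the labels and the study's methods, the authors aligned reads to hg38 with STAR 2.7.3a and quantified Ensembl release 102 genes in Partek Flow 10.0.22 by expectation maximisation, and they deposited the resulting estimated counts per gene and library. A second table of the authors' own comparison (p-values, FDR, ratios, fold changes, group means) was not used. Members and lists were chosen with earlier results of these data known.

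Here counts were rounded, genes with a largest count above 12 were kept (23952), scaled by TMM and fitted with edgeR 4.0.16 in R 4.3.3 (robust quasi-likelihood F test of the group, no covariate). P-values were adjusted over all genes tested by Benjamini and Hochberg. The error printed beside a log2 fold change is a standard error, taken as the size of that change divided by the square root of its F statistic. CPM is relative to the TMM-scaled library size. The fit was tested on simulated data. Named members are the 8 highest in mean CPM, up to 10 of the largest decreases and increases past 2-fold, those with a listed role, those that hold a microRNA gene, those within 100 kb of another member, those with 3 or fewer counts in a group and those beside the limit of 50, together with neighbouring coding genes. Others are named where said. Features came from GENCODE 44 on hg38 (119 members matched by symbol, 8 by position), and gene ends are 1 base below the deposited stop. Alternatives were other scalings, DESeq2 1.42.0, limma 3.58.1 (voom, and log2(CPM + 1)), other count limits, a 1.5-fold test, a block for the replicate number, leaving out each library and, chosen after the data were seen, an offset for GC and length.

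Totals of 18757228 to 33148937 counts gave a biological coefficient of variation of 6.44%. Correlations of log2 CPM ran from 0.986 to 0.989 within groups and from 0.942 to 0.944 between them. Replicates are of 1 line each, so p-values measure the spread between these libraries. Intervals cover counting error only.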

Additional observations from a re-analysis of the deposited data

How the results depend on the processing

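Of the 41 members that decreased 2-fold or more, 33 did so in every refit over all genes apart from the 1.5-fold test, which has no 2-fold call, and DESeq2 gave 41, of which 41 were shared. The count of 2-fold decreases was 23 among 74 members with a mean count of 100 or more, 14 among 37 free of overlap and 22 among 100 with a mean of 50 or more in each group. Over the same 127 members it was 40 to 45 with each library left out and 35 with limma on log2(CPM + 1). It was 48 with the filter at a mean count of 50, and 49 with library size alone and with upper-quartile factors. The count of 2-fold increases was 2 with library size alone, upper-quartile factors, a filter at a mean count of 50, the GC and length offset and among members free of overlap, and 9 among 185 members at 20 or more. Calls at FDR under 0.05 were 47 lower at 100 or more, 19 lower and 4 higher free of overlap, and 20 higher at 20 or more. Changed member limits also change how many members there are. The median of all genes moved from -0.02 to -0.13 with library size alone and to -0.12 with upper-quartile factors.

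The median of the members was -0.67 with library size alone, -0.66 with upper-quartile factors, -0.62 with the filter at 50, -0.65 with the GC and length offset, -0.47 with limma on log2(CPM + 1), -0.43 free of overlap and -0.41 with 50 or more in each group. On the log2(CPM + 1) scale, which shrinks low genes, LINC00470 was at -3.77, LINC01806 at -2.36 and LINC00308 at -1.86. The correlation with the neighbour was 0.288 within 100 kb, -0.0743 beyond it, 0.216 with log2(CPM + 1) and 0.141 to 0.163 with each library left out.

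Values near 0 changed sign. LINC02693 was at -0.08 with library size, -0.06 with upper quartile, -0.03 with the filter at 50 and -0.06 with the offset. LINC00511 was at -0.02, -0.00 and -0.03, LINC00937 at -0.03, -0.02 and -0.07 with library size, upper quartile and the offset, and LINC02367 at -0.00 and -0.02 with library size and the offset. LINC02449 was at 0.05 without ΔTUT4/7 replicate 1. ZNF33B was at 0.02 without WT replicate 2, 0.02 without ΔTUT4/7 replicate 1 and 0.07 with the offset, and ZFP14 at -0.08, -0.07 and -0.03 with library size, upper quartile and the filter at 50 and from -0.01 to 0.08 with each library left out.

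With the replicate number as a block, 42 members were lower by 2-fold. Libraries with the same number did not deviate together (r = 0.0516, -0.0109 and -0.0222 over 15574 genes). These values cannot show whether such libraries were grown or prepared together. Over 72 named genes and 1224 refitted values, 38 fell short of the threshold that the reported value had passed and 17 passed it newly. Many of the 38 came from the 1.5-fold test, which asks for a larger change and leaves the fold change as it was. Most others were refits of LINC00987 and LINC01783. Why the other calls changed was not tested. Among the calls gained, LINC00641 was called lower with library size (adjusted p = 0.00125), upper quartile (0.00246), the filter at 50 (0.00874) and the offset (0.0378). CDR1 was called lower with DESeq2 (0.018), limma-voom (0.000943), log2(CPM + 1) (0.000638), the filter at 50 (0.0496) and the offset (0.0466). LINC01033 was called lower with library size (0.0306), upper quartile (0.0327), the filter at 50 (0.0343) and the offset (0.0364), and LINC02754 with library size (0.0458) and the offset (0.0449).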
